A study of Homo sapiens with 24 samples.

Results

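Steroid hormone receptors and the genes that estrogen controls were followed through 8 conditions of a pair of ovarian cancer cell lines. The set was named gene by gene and holds 9 genes of the 28277 in each count table. It comprises 4 receptors, namely ESR1, ESR2, PGR and NR3C1, and 5 target genes, namely GREB1, TFF1, PDZK1, IGFBP4 and CXCL12. All 9 had a line in both tables. After the filter on low counts, 7 were tested in the table of the A pair and 6 in the table of the B pair.

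PEO1 and PEO4 are human high-grade serous ovarian carcinoma lines, labelled as ovarian adenocarcinoma cells, of which PEO4 is the drug-resistant member. In the A pair, PEO1 A lacked BRCA2 function and PEO4 A carried BRCA2. Both have the genotype label WT, and both were left untreated. In the B pair, PEO1 B carried the BRCA2+ genotype, acquired through a spontaneous reversion, beside PEO4 B, and each was left untreated or given 5 µM PDS for 2 or 6 h. PDS is pyridostatin, a small molecule that binds G-quadruplexes (G4s), which are 4-stranded structures formed by guanine-rich DNA. Each of the 8 conditions had 3 biological replicates, giving 24 libraries of polyadenylated RNA. The culture medium contained serum, and no hormone was added or removed according to the sources used here. The A pair was also grown with sodium pyruvate. Each condition stands for 1 cell line and not for a tumour type.

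Steroid receptors are transcription factors that are held by chaperones until a hormone binds them. Estrogen receptor alpha, encoded by ESR1, and estrogen receptor beta, encoded by ESR2, then act at estrogen response elements or through other factors on DNA. PGR encodes the progesterone receptor and is itself a well-known target of estrogen receptor alpha, while NR3C1 encodes the glucocorticoid receptor. ESR1 is commonly present in high-grade serous carcinoma.

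Library totals ran from 32528913 to 63882077 counts in the A pair, from 18699929 to 22375644 in untreated B libraries and from 33260167 to 43713947 in PDS-treated B libraries. Ribosomal RNA genes took 0.217% to 0.474% of counts in the untreated B libraries and 0.0164% to 0.0369% in the PDS-treated ones, in both lines. These differences in depth and ribosomal share cannot be told apart from treatment in comparisons of treated with untreated cells. The A and B tables were scaled separately, and values from them are set side by side without a test. Replicate 1 of PEO4 A stood apart, with a chi-square per degree of freedom of 52.1 and 44.5 against its partners, which differed from each other by 9.50. Replicate 1 of PEO1 A (17.2 and 19.7, partners 5.35) and replicate 2 of PEO4 B at 2 h (15.0 and 22.5, partners 5.60) also stood apart, and the untreated PEO4 B libraries differed from one another by 14.4 to 26.4. Of 12 epithelial markers of serous carcinoma, 10 or 11 had more than 3 counts in each condition, with a summed level of 5080 to 14200 CPM, while SOX17 was at 0 in 4 conditions. Single markers moved in both directions after 6 h of PDS. MUC16 went from 413 to 68.7 CPM in PEO1 B and from 545 to 51.6 CPM in PEO4 B. In PEO4 B, MSLN went from 651 to 133 CPM and FOLR1 from 33.7 to 1.16 CPM. MECOM went from 0.159 to 10.2 CPM and KRT7 from 1050 to 1680 CPM there. Summed leukocyte markers were at 28.5 to 84.0 CPM, with CD3E at 0 throughout. In PEO4 B they were at 33.8 to 57.1 CPM untreated and 73.6 to 84.0 CPM at 2 h. Most of that sum was CD68, which averaged 42.4 CPM untreated and 72.4 CPM at 2 h. CD14 averaged 2.0 and 5.9 CPM there, and PTPRC had 0 counts in both conditions. Summed endothelial markers were at 0.183 to 2.76 CPM, and in PEO4 B they were at 1.61 to 2.76 CPM untreated and 0.183 to 0.210 CPM at 6 h. The part of these markers in the results was not tested. CPM here is the usual depth-scaled count, with library sizes corrected by TMM, a trimmed mean of ratios between libraries.

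The promoters of 7 genes could be read, and 3 windows are shown because their genes were called after PDS and the window holds a searched motif but no base of the gene's own exons. Each is the 250 bases before a RefSeq start on GRCh38.p14, written 5′ to 3′ on the gene's strand. Capitals mark a G4 pattern, defined as 4 runs of at least 3 G with loops of 1 to 7 bases on either strand, or an estrogen response element half-site, GGTCA or TGACC on the printed strand. The windows cover chr17:40443200-40443449 (plus strand) for IGFBP4, chr1:145707401-145707650 (minus strand) for PDZK1 and chr6:151808857-151809106 (plus strand) for 1 of the 6 ESR1 windows.
IGFBP4: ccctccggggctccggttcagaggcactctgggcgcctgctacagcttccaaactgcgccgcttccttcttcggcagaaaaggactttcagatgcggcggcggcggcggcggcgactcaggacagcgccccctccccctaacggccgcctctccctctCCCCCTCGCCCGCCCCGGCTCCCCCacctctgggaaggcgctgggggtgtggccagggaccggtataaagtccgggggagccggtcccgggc
PDZK1: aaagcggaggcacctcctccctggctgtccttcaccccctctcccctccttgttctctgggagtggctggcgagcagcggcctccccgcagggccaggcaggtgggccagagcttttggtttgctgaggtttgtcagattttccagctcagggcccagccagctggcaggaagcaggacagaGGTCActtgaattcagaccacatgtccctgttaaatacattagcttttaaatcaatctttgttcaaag
ESR1: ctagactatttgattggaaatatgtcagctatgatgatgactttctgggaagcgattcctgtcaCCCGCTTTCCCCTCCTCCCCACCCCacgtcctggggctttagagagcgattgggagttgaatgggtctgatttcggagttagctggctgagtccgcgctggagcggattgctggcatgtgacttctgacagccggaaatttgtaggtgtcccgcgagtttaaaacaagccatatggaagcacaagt
The IGFBP4 window lay outside the annotated gene, and the other two lay within the span of PDZK1 and of ESR1, before an internal start.

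In the IGFBP4 window the G4 pattern was on the strand opposite the gene, from base 159 to base 183, that is from 92 bases before the start. The ESR1 window held one from base 65 to base 89, also on the opposite strand. Neither PDZK1 window held a G4 pattern, but both held GGTCA, 68 bases before the start in the window shown. Over all 7 genes, 6 had at least 1 window with a G4 pattern among their 25 windows, comprising 2 of 6 for ESR1, 2 of 5 for ESR2, 3 of 3 for PGR, 3 of 7 for NR3C1, and the single windows of IGFBP4 and CXCL12. Such a pattern was present in 31.5% of 17892 windows of genes tested in the B table and in 23.5% of all 35116 windows. These shares count windows and not genes, so they cannot be set against the 6 of 7 genes. A half-site was present in 32.6% of all windows. The full element GGTCANNNTGACC was in 14 of all windows (0.0399%) and in none of the 25. These are matches of letters and no measure of binding or of folded structures.

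Levels can be compared between genes per exon length, as RPKM, for which the merged exons of each gene in GENCODE release 44 were used. IGFBP4 (chr17:40443450-40457725), which encodes a secreted protein that binds insulin-like growth factors, was the highest in each of the 8 conditions, at 81.6 to 318 RPKM. NR3C1 (chr5:143277931-143435512) lay at 9.69 to 41.5 RPKM and ESR1 (chr6:151656691-152129619) at 4.53 to 26.2 RPKM. PDZK1 (chr1:145670852-145708148), which encodes a scaffold protein with PDZ domains, lay at 1.87 to 14.4 RPKM, and GREB1 (chr2:11482341-11642788), an estrogen-induced coactivator of estrogen receptor alpha, at 0.156 to 8.90 RPKM. IGFBP4, NR3C1, ESR1 and PDZK1 were the 4 genes above 1 RPKM in every condition. With the longest transcript as the length, ESR1 ranked above NR3C1 in 4 of the 8 conditions, against 1 with merged exons.

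**Figure D1:**
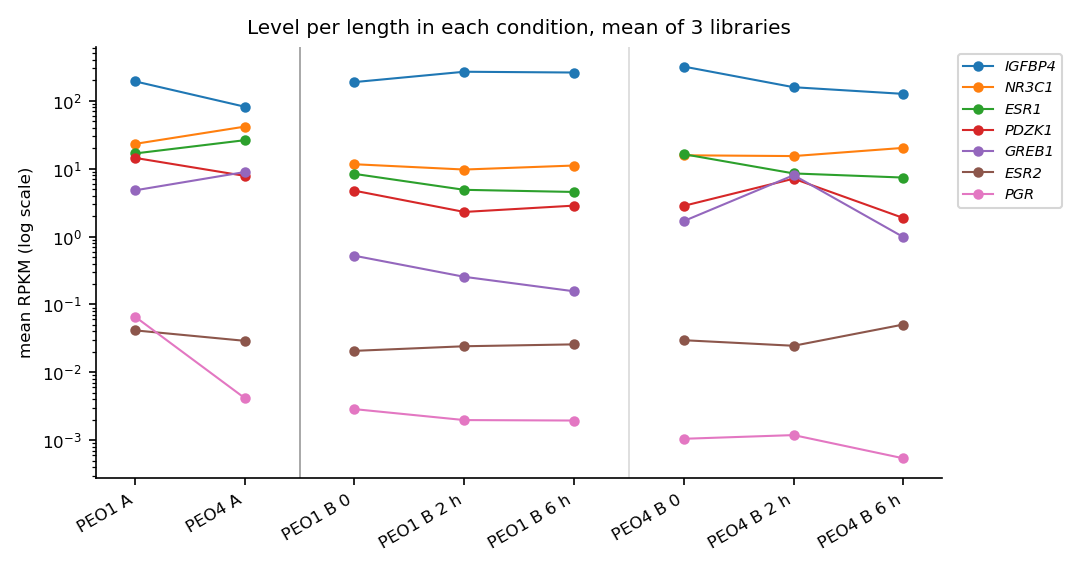
Mean RPKM of 3 libraries (log axis) for 7 genes in the 8 conditions, where 0, 2 h and 6 h give the time in PDS. The dark vertical line after PEO4 A divides tables that were scaled separately. IGFBP4 lies highest throughout, GREB1 spans 0.156 to 8.90 RPKM, and PGR in the B pair rests on 0 to 2 counts a library. TFF1 and CXCL12 are not drawn, since they had no counts in the B pair.

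Among the receptors, ESR2 (chr14:64084232-64338112) was close to the limit of detection, with 2 to 46 counts per library in the A pair and 2 to 25 in the B pair. Its mean level lay between 0.248 and 0.604 CPM in the B pair, and PEO4 B after 6 h was the highest condition. ESR2 stood at 0.453, 0.610 and 0.748 CPM there, apart from the 0.301, 0.346 and 0.415 CPM of untreated PEO4 B, while the 5 other conditions overlapped their neighbours in order. The difference at 6 h was a log2 fold change of 0.74 (SE 0.453, adjusted p = 0.147). It passed adjusted p between 6 h and 2 h in PEO4 B, at 0.99 (SE 0.416, adjusted p = 0.0428), although those libraries overlapped. Without replicate 1 of the 2 h libraries, which had 2 counts, it was 0.53 (adjusted p = 0.234), and without replicate 3 it was 1.49 (adjusted p = 0.0126).

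PGR (chr11:101029624-101129813) was detected in PEO1 A and hardly elsewhere. The 3 PEO1 A libraries had 36, 44 and 53 counts and the 3 PEO4 A libraries had 4, 0 and 4. In the B pair no library had more than 2 counts of PGR, and the gene was not tested there. An antisense gene, PGR-AS1, shares 737 exon bases with PGR on the opposite strand, and it had 0 to 2 counts per library.

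Of the target genes, TFF1 (chr21:42362282-42366535), which encodes a secreted trefoil peptide and is a standard estrogen-induced gene of breast cancer cells, had 4 counts in replicate 2 of PEO1 A and 0 in the other 23 libraries. CXCL12 (chr10:44370165-44386493), a chemokine that signals through CXCR4, had 0 counts in all 24. A count of 0 allows a level of up to 0.0470 to 0.160 CPM, depending on the library, at the limit of 3 counts. Neither gene was detectable at this depth in the B pair. Limits of this kind cover counting error only.

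The untreated A pair asked how the drug-resistant line differs from its BRCA2-deficient partner. PGR and IGFBP4 were lower in PEO4 A, ESR1 and NR3C1 were higher by less than the fold required for a call, and PDZK1 was lower by less than that fold. A gene was called where edgeR's quasi-likelihood test gave an adjusted p below 0.05 and the change exceeded 1 log2 unit in either direction. Below, "rose" and "fell" are used of adjusted p under 0.05, and calls are named as such. Adjusted p alone was passed by 61.6% of all genes in the A pair and by 6.94% to 72.9% over the B comparisons. Called higher were 0 of 7 genes and called lower 2 of 7, where 12.6% and 13.1% of all 15882 tested genes were called higher and lower. Of the 2, PGR passed the filter on low counts through its PEO1 A libraries alone. The median log2 fold change was -0.396 over the 7 genes and -0.0061 over all tested genes.

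PGR averaged 0.974 ± 0.212 CPM (SD, n = 3) in PEO1 A and 0.0614 ± 0.0612 CPM in PEO4 A. PGR differed by -3.95 on the log2 scale (SE 0.615, adjusted p = 0.000115), which is 15.4-fold lower. It passed the filter on low counts through its PEO1 A libraries alone, so no conclusion is drawn from this p. Leaving out each library gave -4.56 to -3.48, the lowest without replicate 3 and the highest without replicate 2 of PEO4 A. The libraries did not overlap, and the PEO4 A value rests on 8 counts in all.

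IGFBP4 stood at 428, 431 and 419.5 CPM in PEO1 A and at 163, 185 and 193 CPM in PEO4 A. The lowest PEO1 A library was thus above every PEO4 A library. On the log2 scale the difference was -1.24 (SE 0.081, adjusted p = 4.99e-08), or 2.37-fold lower. RNA was measured in bulk, so fewer cells with a transcript and less of it per cell cannot be told apart here or below.

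ESR1 stood at 233, 240.0 and 215 CPM in PEO1 A and at 364, 348 and 366 CPM in PEO4 A. NR3C1 stood at 229.8, 206 and 199.8 CPM in PEO1 A and at 369, 383 and 388 CPM in PEO4 A. Both receptors were higher in every PEO4 A library. ESR1 differed by 0.65 on the log2 scale (SE 0.0744, adjusted p = 8.51e-06) and NR3C1 by 0.84 (SE 0.078, adjusted p = 1.17e-06). PDZK1 averaged 35.7 ± 2.39 CPM in PEO1 A and 19.4 ± 2.52 CPM in PEO4 A, a log2 fold change of -0.88 (SE 0.109, adjusted p = 1.62e-05), with no overlap.

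GREB1 stood at 65.9, 56.3 and 56.1 CPM in PEO1 A and at 203, 53.7 and 75.6 CPM in PEO4 A. Replicate 1 of PEO4 A, the library that stood apart, held 13159 GREB1 counts, and the other two had 1894 and 2468. The groups overlapped and the log2 fold change was 0.90 (SE 0.565, adjusted p = 0.232). Without that library it was 0.13 (adjusted p = 0.444). ESR2 differed by -0.40 (SE 0.606, adjusted p = 0.591). Its value was -1.59 (adjusted p = 0.0503) without replicate 1 of PEO4 A and 0.05 (adjusted p = 0.944) without replicate 2. Summed fibroblast and stromal markers were at 48.1 to 53.4 CPM in PEO1 A and 8.47 to 13.6 CPM in PEO4 A, and their part in these differences was not tested.

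**Figure D2:**
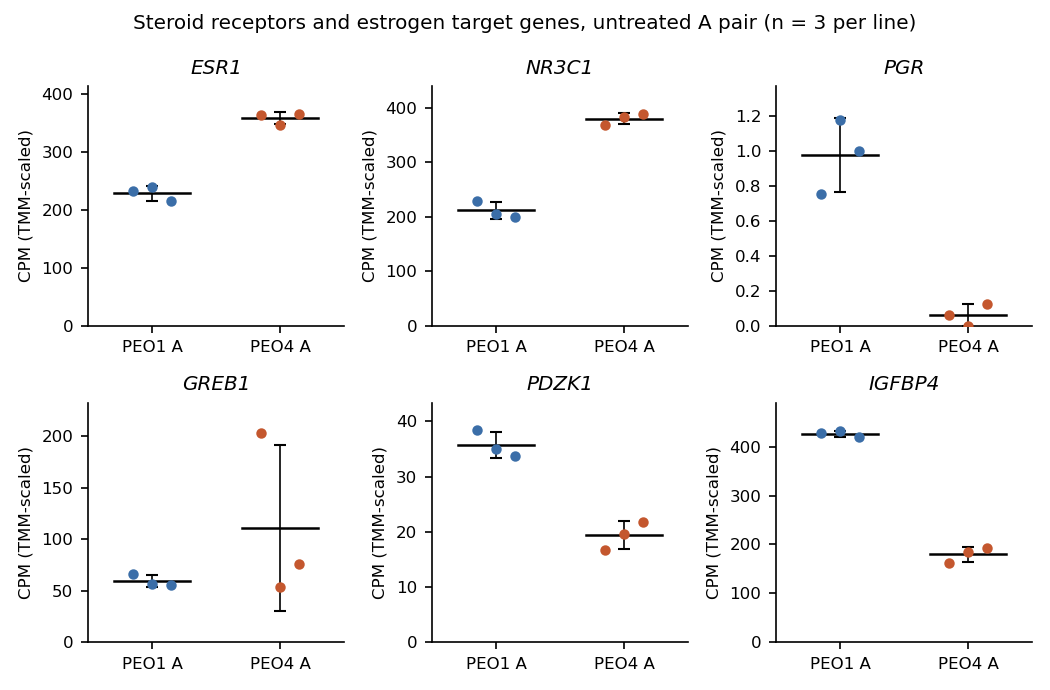
TMM-scaled CPM of 6 genes in the 3 libraries of PEO1 A (blue) and of PEO4 A (orange). Points are libraries, and the bar with whiskers is the mean ± SD. ESR1 and NR3C1 were higher and PGR, PDZK1 and IGFBP4 lower in each PEO4 A library, while 1 PEO4 A library carried GREB1 at 203 CPM.

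The untreated B pair compared the lines where both carry BRCA2. GREB1 was called higher in PEO4 B, while ESR1, NR3C1 and IGFBP4 rose by less than the fold for a call and PDZK1 was at the edge of the adjusted p threshold. Of 6 genes tested, 1 was called higher and 0 lower, against 12.2% and 12.6% of all 17020 tested genes. The median was 0.628 over the 6 genes and -0.00112 over all.

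ESR1 stood at 109.8, 110.1 and 124 CPM in PEO1 B and at 221, 226 and 223 CPM in PEO4 B. PEO4 B was 1.95-fold higher, with a log2 fold change of 0.96 (SE 0.0565, adjusted p = 1.17e-13), just under the fold required. NR3C1 was at 109, 103 and 107 CPM and at 135, 162 and 134 CPM, a log2 fold change of 0.43 (SE 0.0696, adjusted p = 5.86e-06). Neither ESR1 nor NR3C1 overlapped between the lines. ESR2 did overlap, at 0.248 ± 0.120 CPM in PEO1 B and 0.354 ± 0.0570 CPM in PEO4 B, with a log2 fold change of 0.50 (SE 0.565, adjusted p = 0.445).

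GREB1 stood at 5.13, 7.23 and 7.07 CPM in PEO1 B and at 12.0, 26.7 and 24.2 CPM in PEO4 B. Even the lowest PEO4 B library was above the highest PEO1 B library. GREB1 differed by 1.68 on the log2 scale (SE 0.306, adjusted p = 0.000272). PDZK1 went the other way, at 12.2, 10.6 and 12.4 CPM in PEO1 B and 5.72, 9.29 and 6.08 CPM in PEO4 B, with a log2 fold change of -0.75 (SE 0.306, adjusted p = 0.044). Its adjusted p ranged from 0.0029 to 0.145 over the alternatives, and it missed the threshold when any library other than replicate 2 of PEO4 B was left out.

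IGFBP4 stood at 400.0, 431 and 414 CPM in PEO1 B and at 712, 626 and 766 CPM in PEO4 B. It was higher in every PEO4 B library, with a log2 fold change of 0.76 (SE 0.0775, adjusted p = 5.19e-09), where PEO4 A had been below PEO1 A in every library. PEO1 A and PEO1 B averaged 426 ± 5.88 and 415 ± 15.6 CPM, while PEO4 A and PEO4 B averaged 179.9 ± 15.4 and 701 ± 70.4 CPM. The difference between the pairs was not tested. Summed stromal markers were at 36.7 to 39.4 CPM in untreated PEO4 B and 12.6 to 15.9 CPM in untreated PEO1 B. The sum was thus higher in PEO4 B and lower in PEO4 A than in the partner line. Not all its members moved that way. FAP averaged 0.764 CPM in untreated PEO4 B against 8.4 CPM in untreated PEO1 B. COL1A2 averaged 2.68 CPM in PEO4 A against 0.175 CPM in PEO1 A. The part of these markers in the IGFBP4 values was not tested. GREB1, ESR1, NR3C1 and PDZK1 were lower in both untreated B lines than in both A lines, also without a test. GREB1 was at 6.48 ± 1.17 CPM in PEO1 B and 20.9 ± 7.86 CPM in PEO4 B. In PEO1 A and PEO4 A, GREB1 was at 59.4 ± 5.62 and 111 ± 80.5 CPM. ESR1 averaged 115 and 223 CPM in PEO1 B and PEO4 B, against 229.5 and 359 CPM in PEO1 A and PEO4 A. In the same order NR3C1 averaged 106 and 144 against 212 and 380 CPM, and PDZK1 11.7 and 7.03 against 35.7 and 19.4 CPM.

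In PEO1 B, PDS was followed by lower ESR1 and GREB1 and by higher IGFBP4 at both times, and by lower PDZK1 at 2 h. At 2 h, 0 of 6 genes were called higher and 2 lower, namely GREB1 and PDZK1, where 1.18% and 6.39% of all genes were called. At 6 h, 0 were called higher and 1 lower, GREB1, where the shares of all genes were 1.29% and 6.83%.

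ESR1 in PEO1 B went from 109.8, 110.1 and 124 CPM untreated to 65.6, 66.6 and 68.1 CPM at 2 h and 61.1, 58.6 and 66.7 CPM at 6 h. All treated libraries were below all untreated ones. The log2 fold changes were -0.78 at 2 h (SE 0.0571, adjusted p = 8.76e-11) and -0.89 at 6 h (SE 0.0572, adjusted p = 1.1e-11). NR3C1 fell by 0.26 at 2 h (SE 0.0696, adjusted p = 0.00288) and overlapped with untreated cells at 6 h, at -0.07 (SE 0.0694, adjusted p = 0.416).

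GREB1 in PEO1 B went to 3.09, 2.95 and 3.49 CPM at 2 h and to 1.63, 1.67 and 2.52 CPM at 6 h. Each step in that order was free of overlap, although 6 h against 2 h had an adjusted p of 0.39. Against untreated cells the log2 fold change was -1.04 at 2 h (SE 0.362, adjusted p = 0.0287) and -1.75 at 6 h (SE 0.393, adjusted p = 0.00217), on 55 to 117 counts per treated library. The call at 2 h ended when replicate 1 or 2 of the treated or replicate 2 or 3 of the untreated libraries was left out, with values of -1.01, -0.97, -0.94 and -0.97.

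PDZK1 in PEO1 B went from a mean of 11.7 ± 0.999 CPM to 5.70 ± 0.558 CPM at 2 h and 7.07 ± 1.14 CPM at 6 h. The log2 fold change was -1.04 at 2 h (SE 0.297, adjusted p = 0.0097) and -0.73 at 6 h (SE 0.291, adjusted p = 0.0486). The 6 h value missed the threshold when any 1 of its 6 libraries was left out, with an adjusted p of up to 0.152. Its call at 2 h ended without replicate 1 of the treated libraries (-0.95) or without replicate 1 or 3 of the untreated ones (-0.98 for replicate 3). A near-identical pseudogene, PDZK1P1, had 0 to 16 counts per library.

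IGFBP4 in PEO1 B went up to 626, 574 and 567 CPM at 2 h and stood at 562, 589 and 567 CPM at 6 h, above all 3 untreated libraries. Against untreated cells it rose by 0.51 on the log2 scale at 2 h (SE 0.0772, adjusted p = 6.88e-06) and 0.46 at 6 h (SE 0.0772, adjusted p = 1.97e-05). Summed stromal markers in PEO1 B were at 12.6 to 15.9 CPM untreated, 17.5 to 17.9 CPM at 2 h and 15.5 to 17.1 CPM at 6 h. Members of that sum moved in opposite directions. FAP averaged 8.4 CPM untreated, 14.1 CPM at 2 h and 12.8 CPM at 6 h, and COL1A1 averaged 5.56, 2.9 and 2.97 CPM. The part of these markers in the IGFBP4 rise was not tested. Between 2 h and 6 h in PEO1 B, edgeR called 0 of 6 genes in either direction, DESeq2 also called 0, and 1 gene, NR3C1, had an unadjusted p under 0.05 (log2 fold change 0.19, adjusted p = 0.0995). Of all genes, 0.0705% were called higher and 0.0999% lower in that step.

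In PEO4 B the 2 times differed. GREB1 and PDZK1 were called higher after 2 h and not after 6 h, while ESR1 and IGFBP4 were lower at both times. At 2 h, 2 of 6 genes were called higher and 1 lower, against 6.40% and 11.0% of all genes. At 6 h, 0 were called higher and 2 lower, against 6.26% and 16.3%.

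GREB1 in PEO4 B went from 12.0, 26.7 and 24.2 CPM untreated to 89.6, 131 and 77.2 CPM at 2 h, and stood at 12.2, 11.9 and 12.4 CPM at 6 h. At 2 h every library was above every untreated one. The log2 fold change at 2 h was 2.25 (SE 0.254, adjusted p = 3.8e-06), which is 4.77-fold higher. At 6 h the libraries overlapped with untreated cells, at -0.78 (SE 0.27, adjusted p = 0.0211). Leaving out each library moved that value between -1.06 and -0.56, and its adjusted p reached 0.112 without replicate 2 of the untreated libraries. From 2 h to 6 h GREB1 fell by 3.03 on the log2 scale (SE 0.259, adjusted p = 3.65e-07), or 8.16-fold.

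PDZK1 in PEO4 B followed the same order, at 5.72, 9.29 and 6.08 CPM untreated, 15.4, 27.0 and 10.5 CPM at 2 h and 4.65, 4.48 and 4.79 CPM at 6 h. The lowest 2 h library was above the highest untreated library. The log2 fold change at 2 h was 1.33 (SE 0.291, adjusted p = 0.00114). Without replicate 2 of the 2 h libraries, which stood apart and was also the highest for GREB1, it was 0.89, under the fold for a call. At 6 h it was -0.59 against untreated cells (SE 0.321, adjusted p = 0.118) and -1.92 against 2 h (SE 0.288, adjusted p = 5.61e-05).

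ESR1 in PEO4 B went from 221, 226 and 223 CPM to 119, 117 and 113 CPM at 2 h and 104, 102 and 98.8 CPM at 6 h. The treated PEO4 B libraries thus reached the range of untreated PEO1 B at 2 h and went below it at 6 h. The log2 fold change was -0.94 at 2 h (SE 0.0559, adjusted p = 4.05e-13) and -1.14 at 6 h (SE 0.0563, adjusted p = 9.55e-15), and the second was a call. Scaled by library totals the 2 h value was -1.07 and also a call, as it was with upper quartiles. NR3C1 overlapped with untreated cells at 2 h, at -0.03 (SE 0.0686, adjusted p = 0.696). At 6 h it rose to 180.1, 184 and 191 CPM, a log2 fold change of 0.37 (SE 0.0685, adjusted p = 4.15e-05).

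IGFBP4 in PEO4 B went from 712, 626 and 766 CPM to 327, 395 and 320.5 CPM at 2 h and 257, 279.5 and 299 CPM at 6 h. Each step was free of overlap. The log2 fold change was -1.01 at 2 h (SE 0.0777, adjusted p = 5.62e-11) and -1.33 at 6 h (SE 0.0783, adjusted p = 3.5e-13). The call at 2 h lay close to the fold required and ended at -0.97, -0.96 and -0.94 without replicate 1 or 3 of the treated or replicate 3 of the untreated libraries, and at -0.99 with no filter on low counts. Between 2 h and 6 h, 0 of 6 genes were called higher and 2 lower, against 2.27% and 9.71% of all genes. Summed stromal markers were at 36.7 to 39.4 CPM in untreated PEO4 B and at 4.53 to 5.71 CPM at 6 h. Collagen genes made up most of that change. COL1A1 averaged 22.1 CPM untreated and 2.8 CPM at 6 h, COL1A2 8.05 and 1.02 CPM, and COL3A1 6.8 and 0.567 CPM. FAP averaged 0.764 and 0.752 CPM. The part of these markers in these results was not tested.

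**Figure D3:**
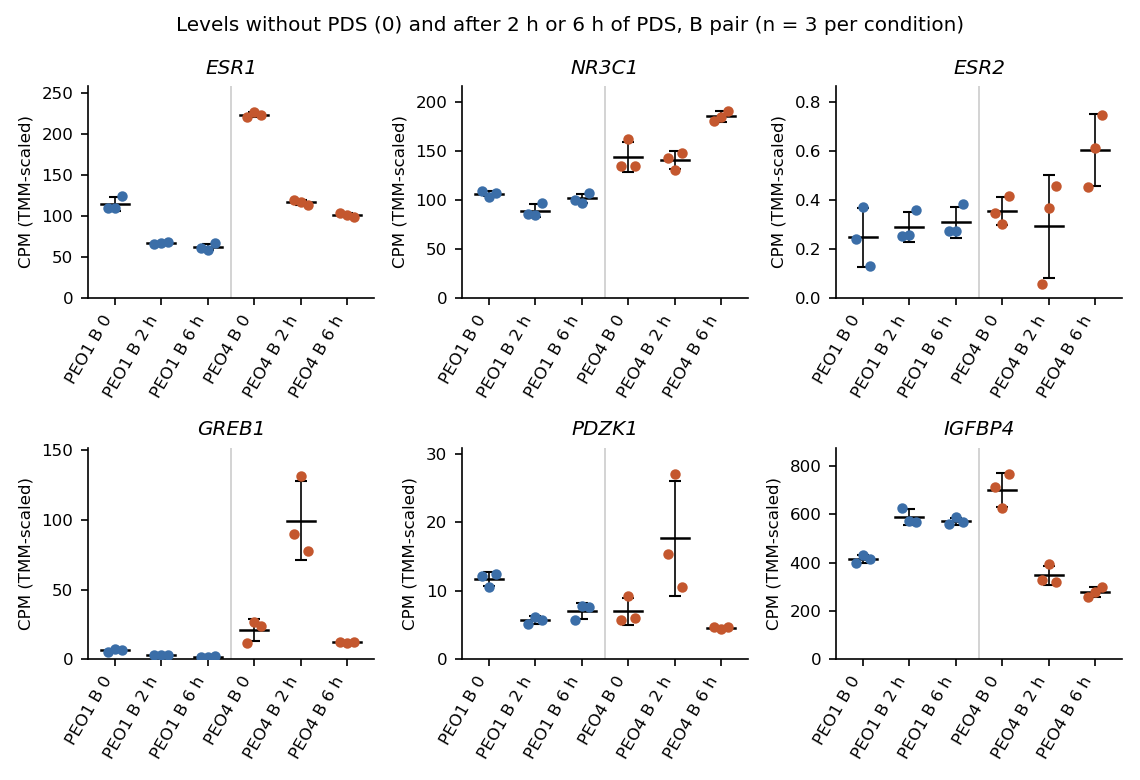
TMM-scaled CPM of the 6 genes tested in the B pair, for PEO1 B (blue) and PEO4 B (orange) without PDS (0) and after 2 h or 6 h. Points are libraries, and bars with whiskers are the mean ± SD of 3. GREB1 and PDZK1 were highest in PEO4 B at 2 h, at 99.4 and 17.6 CPM on average, and IGFBP4 went up in PEO1 B and down in PEO4 B.

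Whether the response itself differed between the lines was tested as an interaction. At 2 h, 2 of 6 genes were called with a higher response in PEO4 B than in PEO1 B and 1 with a lower one, against 6.10% and 4.92% of all genes. GREB1 differed by 3.29 on the log2 scale (SE 0.441, adjusted p = 6.71e-05) and PDZK1 by 2.37 (SE 0.416, adjusted p = 0.000526), having gone up in PEO4 B and down in PEO1 B. IGFBP4 differed by -1.52 (SE 0.11, adjusted p = 1.45e-10), having gone up in PEO1 B and down in PEO4 B. These 3 calls held under all 20 alternatives, with ranges of 3.00 to 3.49, 1.92 to 2.63 and -1.62 to -1.45.

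At 6 h, 0 of 6 were called higher and 1 lower, against 5.42% and 9.34% of all genes. That gene was IGFBP4, at -1.80 (SE 0.11, adjusted p = 7.21e-12). NR3C1 differed by 0.44 (SE 0.0975, adjusted p = 0.000686) and ESR1 by -0.26 (SE 0.0796, adjusted p = 0.0104), both under the fold for a call. GREB1 and PDZK1 differed by 0.97 (SE 0.481, adjusted p = 0.117) and 0.14 (SE 0.433, adjusted p = 0.82). Treated and untreated libraries differed in depth and ribosomal share in both lines, and the part of this in the interactions was not tested.

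**Figure D4:**
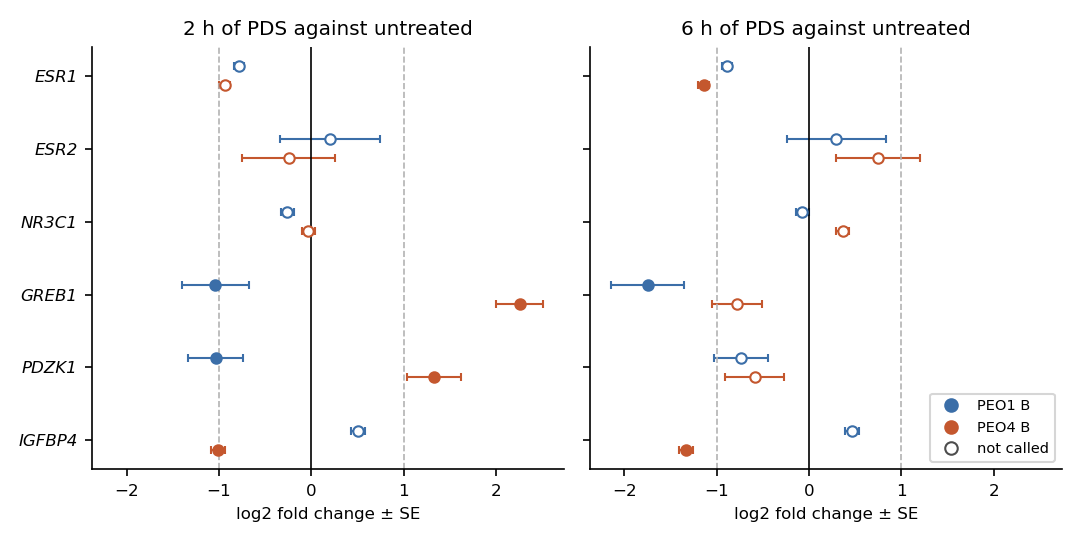
Log2 fold change ± SE of 6 genes after 2 h (left) and 6 h (right) of PDS against untreated cells, in PEO1 B (blue) and PEO4 B (orange). Filled points passed both the adjusted p and the fold threshold, which is drawn as dashed lines. GREB1 at 2 h lies at -1.04 in PEO1 B and 2.25 in PEO4 B, and IGFBP4 at 6 h at 0.46 and -1.33.

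The lines were also compared directly under PDS, where GREB1 was called higher in PEO4 B at both times. At 2 h, 2 of 6 genes were called higher in PEO4 B and 0 lower, against 13.9% and 12.6% of all genes. GREB1 was 31.3-fold higher (log2 fold change 4.97, SE 0.304, adjusted p = 4.15e-09) and PDZK1 3.07-fold higher (1.62, SE 0.282, adjusted p = 0.000137). At 6 h, 1 was called higher and 1 lower, against 9.52% and 13.5%. GREB1 was 6.28-fold higher (2.65, SE 0.348, adjusted p = 1.39e-05), and IGFBP4 was 2.06-fold lower (-1.04, SE 0.0778, adjusted p = 1.73e-11). Without replicate 1 of PEO4 B at 6 h the IGFBP4 value was -0.98 and no longer a call. ESR2 was higher in each PEO4 B library at 6 h, at 0.95 (SE 0.42, adjusted p = 0.0491), and without that same library it was 1.13 and a call. Its adjusted p ranged from 0.0172 to 0.169 over the alternatives.

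The order of the 6 conditions was different for each gene. For ESR1 it ran from untreated PEO4 B (223 CPM) over PEO4 B at 2 h (117 CPM) and untreated PEO1 B (115 CPM), which overlapped, to PEO4 B at 6 h (101 CPM) and the overlapping PEO1 B at 2 h (66.8 CPM) and 6 h (62.1 CPM). For NR3C1, PEO4 B at 6 h came first (185 CPM), apart from the overlapping PEO4 B untreated and at 2 h (144 and 140 CPM), and all PEO1 B conditions followed at 88.8 to 106 CPM. For GREB1 the 3 PEO4 B conditions came before the 3 of PEO1 B, and only untreated PEO4 B and PEO4 B at 6 h overlapped. For IGFBP4 untreated PEO4 B came first, overlapping with PEO1 B at 2 h, which overlapped with PEO1 B at 6 h. Untreated PEO1 B, PEO4 B at 2 h and PEO4 B at 6 h followed, each apart from the next.

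Genes with the most similar course over the 18 B libraries were sought by Pearson's r of log2 CPM among 13119 genes with a mean log2 CPM of at least 1. The points are libraries that share lines, treatments and depth, and the values are given as a description. For ESR1 the 3 nearest genes were MEST (0.987), LAMA5 (0.986) and SLC35E2B (0.983), of which LAMA5 encodes a laminin chain. For GREB1 they were C2orf50 (0.984), GALM (0.981) and CABLES1 (0.979), and for NR3C1 they were ROCK2 (0.977), BSDC1 (0.975) and MMP16 (0.973). For IGFBP4 they were HTRA1 (0.957), KDM4B (0.951) and GPNMB (0.942), where HTRA1 encodes a secreted serine protease. For PDZK1 they were MOXD1 (0.924), SLC2A9 (0.905) and PLEKHB1 (0.901). ESR2, with its few counts, reached at most 0.751, with MTRF1. HTRA1 went from 9.16 CPM in untreated PEO4 B to 0.445 CPM at 2 h and 0.136 CPM at 6 h, and C2orf50 from 5.27 CPM to 16.2 and 4.18 CPM.

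Other parts of the steroid receptor system were described through 8 lists of genes, some of which appear in more than 1 list. In the untreated A pair, where 12.6% of all genes were called higher and 13.1% lower, the other nuclear and membrane steroid receptors had 4 genes called higher and 4 lower in PEO4 A of 19 tested. NR2F1, an orphan receptor, and PPARG were lower, at 0.721 against 37.5 CPM and 1.35 against 20.6 CPM. Receptor cofactors and pioneer factors had 3 called higher and 3 lower of 19. Among the lower was GATA3, at 19.8 ± 2.62 against 91.9 ± 5.31 CPM (log2 fold change -2.21, SE 0.101, adjusted p = 2.12e-09). Of 14 chaperones, 3 were higher and 0 lower, among them HSP90AB1 (1.47) and HSPA4 (1.23).

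Still in the A pair, 7 of 39 other estrogen response genes were called higher and 11 lower, with a list median of -0.351 against -0.0061 over all genes. SERPINA1 was among the higher (2.56) and CA12, a carbonic anhydrase, among the lower, at 3.90 ± 0.363 against 119 ± 3.68 CPM (-4.92, SE 0.0957, adjusted p = 1.8e-12). Glucocorticoid and progestin response genes had 3 higher and 4 lower of 19, with SGK1 at 1.94 ± 0.398 against 47.8 ± 1.32 CPM (-4.65, SE 0.138, adjusted p = 4.71e-11). The insulin-like growth factor list had 2 higher and 4 lower of 10. IGFBP2 was higher at 50.1 ± 25.5 against 3.37 ± 0.366 CPM, and IGFBP5 was lower at 1.24 ± 0.908 against 284 ± 66.8 CPM. PAPPA, the protease that cleaves IGFBP4, was lower at 0.0562 against 3.94 CPM. PAPPA had at most 4 counts in a PEO4 A library and passed the filter on low counts through its PEO1 A libraries alone. The list around CXCL12 had 1 higher and 2 lower of 3, and steroid synthesis and metabolism 3 higher and 3 lower of 13.

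In the untreated B pair, 12.2% of all genes were called higher and 12.6% lower. The list counts of genes called higher and lower in PEO4 B were 3 and 5 of 19 for nuclear receptors, 5 and 0 of 19 for cofactors, and 1 and 1 of 14 for chaperones. They were 9 and 12 of 41 for estrogen response genes, 5 and 3 of 19 for glucocorticoid and progestin response genes, and 4 and 4 of 11 for the insulin-like growth factor list. The list around CXCL12 had 2 and 1 of 3, and steroid synthesis had 0 and 0 of 11. The median log2 fold change of those 11 genes was 0.261, against -0.00112 over all genes. In the estrogen response list SERPINA1 (3.98) and HSPB8 (3.08) were higher, and in the insulin-like growth factor list IGF1R (1.56) and IGFBP6 (1.14) were higher. AREG, an estrogen-inducible ligand of the EGF receptor, was lower at 6.61 ± 1.68 against 86.9 ± 5.59 CPM (-3.71, SE 0.103, adjusted p = 2.03e-19). PAPPA was lower at 0.309 ± 0.0685 against 36.1 ± 1.66 CPM (-6.85, SE 0.152, adjusted p = 8.73e-22), with at most 8 counts in an untreated PEO4 B library.

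After 6 h of PDS in PEO1 B, 1.29% of all genes were called higher and 6.83% lower. The nuclear receptors had 1 higher and 2 lower of 19, where NR5A2 was at 15.3 ± 0.368 against 4.52 ± 1.05 CPM (1.75, SE 0.129, adjusted p = 7.56e-11). Cofactors, chaperones and the insulin-like growth factor list had 0 called higher and 0 lower, of 19, 14 and 11. Their medians were -0.0369, 0.359 and -0.0679, against -0.0268 over all genes. Estrogen response genes had 3 higher and 1 lower of 41, with PKIB higher (1.12) and SERPINA1 lower (-1.36, adjusted p = 0.00936). Of 19 glucocorticoid and progestin response genes, 0 were higher and 2 lower, namely KLF9 (-1.23) and DUSP1 (-1.19). The list around CXCL12 and steroid synthesis each had 2 lower, of 3 and 11.

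After 6 h of PDS in PEO4 B, where 6.26% of all genes were called higher and 16.3% lower, 4 of 14 chaperones were called higher and 0 lower, with a list median of 0.904 against -0.0281 over all genes. HSP90AA1, which encodes a chaperone that holds steroid receptors ready for hormone, went from 1649 ± 295 to 4913 ± 68.2 CPM (1.57, SE 0.121, adjusted p = 4.43e-09), and DNAJB1 from 312 ± 7.58 to 761 ± 2.70 CPM (1.29, SE 0.0527, adjusted p = 3.41e-16). Nuclear receptors had 2 higher and 5 lower of 19, with NR2F1 higher (3.43) and NR4A1 lower (-2.53). Cofactors had 0 higher and 2 lower of 19, BCAS3 (-1.42) and GATA3 (-1.17).

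Of the 41 other estrogen response genes, 7 were higher and 7 lower at 6 h in PEO4 B, against 6.26% and 16.3% of all genes, with a list median of 0.153. MYBL1 went from 16.9 ± 2.01 to 51.2 ± 1.65 CPM (1.60, SE 0.0877, adjusted p = 6.25e-14) and KRT13 from 44.6 ± 27.7 to 1.23 ± 0.254 CPM (-5.17, SE 0.579, adjusted p = 3.23e-06). At 2 h the same list had 8 higher and 4 lower, against 6.40% and 11.0% of all genes. From 2 h to 6 h it had 3 higher and 13 lower, against 2.27% and 9.71%. Glucocorticoid and progestin response genes had 1 higher and 5 lower of 19 at 6 h, with SGK1 higher (1.96) and DUSP1 lower, from 314 ± 167 to 42.5 ± 5.34 CPM (-2.88, SE 0.372, adjusted p = 1.25e-05). The insulin-like growth factor list had 0 higher and 3 lower of 11, with IGFBP3 at 213 ± 37.9 before and 44.6 ± 2.75 CPM after PDS (-2.26, SE 0.0984, adjusted p = 7.54e-14). The list around CXCL12 had 0 higher and 2 lower of 3, including DPP4 (-2.40), a protease that cleaves CXCL12, and steroid synthesis had 0 higher and 1 lower of 11.

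**Figure D5:**
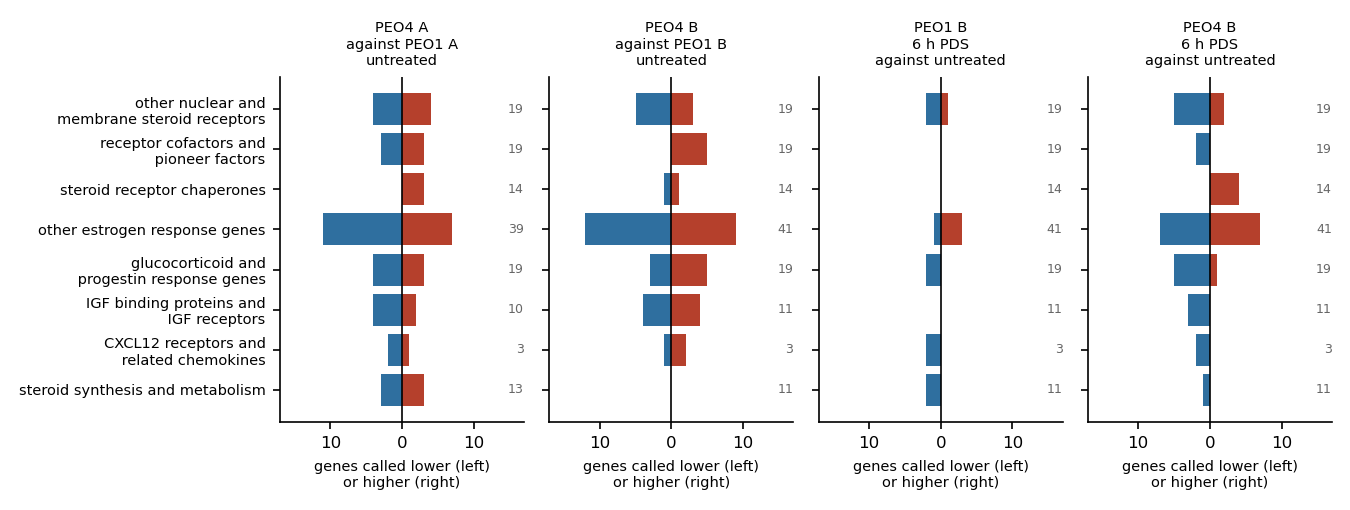
Number of genes called higher (right, red) or lower (left, blue) in 8 lists, for 4 comparisons given above the panels. The grey number at the right of each row is the number of genes tested. Estrogen response genes have calls in both directions in each panel, and chaperones have 4 higher and 0 lower in PEO4 B after 6 h.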

How the data were processed

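RNA was measured by polyA-enriched RNA-seq in 24 libraries, 3 for each of 8 conditions. Per the labels, the authors used FastQC, fastp, STAR with hg38 and featureCounts and deposited raw counts for each gene. The counting options, strand setting and annotation were not given in the sources used here, and a directional kit was named for the A pair. Each table held 28277 genes, after 2 lines (A) and 1 line (B) without readable counts were left out.

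The test was the quasi-likelihood F test of edgeR 4.0.16 under R 4.3.3 (filterByExpr with a minimum count of 10 and a minimum total of 15, TMM, robust quasi-likelihood fit, 1 mean per condition). Each table was fitted on its own, with 15882 and 17020 genes tested and 4 and 12 residual degrees of freedom. P-values were adjusted by Benjamini-Hochberg over all tested genes. A call needed adjusted p below 0.05 together with a change of more than 1 log2 unit. SE is the log2 fold change divided by the root of F. The script was tested on simulated data with 200 changed genes. CPM for the likeness search used a prior count of 2.

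The members and lists were chosen with earlier results of these data known. Named genes were the 9 members, up to 2 called genes with the largest rise and 2 with the largest fall per list in 4 comparisons (mean log2 CPM of at least 1, some not reported here), and the 3 genes most like each member. PAPPA and HTRA1 fell within that rule. Alternatives were 3 other scalings, DESeq2 1.42.0, other filters, adjusted p alone, a replicate block, a fit to the compared conditions only and leaving out each library. Replicates were checked for duplicates, and all pairs differed by more than sampling noise. Positions and exon lengths came from GENCODE release 44 and promoter windows from RefSeq.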

Additional observations from a re-analysis of the deposited data

Results flagged for a closer look

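The response to PDS differed between PEO4 B and PEO1 B by a test of the difference for 3 genes at 2 h, namely GREB1 (3.29 on the log2 scale), PDZK1 (2.37) and IGFBP4 (-1.52). At 6 h it differed for IGFBP4 (-1.80) and, by less than the fold for a call, for NR3C1 (0.44) and ESR1 (-0.26).

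IGFBP4 moved in opposite directions between the lines of each pair. It was -1.24 on the log2 scale in PEO4 A against PEO1 A and 0.76 in PEO4 B against PEO1 B, with no overlap of libraries in either pair. This difference between the pairs was not tested.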

How the results depend on the processing

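Of the log2 fold changes recomputed under the alternatives run, 0 reversed a call, 13 ended one, 11 made one and 1046 kept their side of the thresholds. With adjusted p alone, the genes called were 5 of 7 in the A pair (61.6% of all genes), 5 of 6 between the B lines untreated (68.6%), at 2 h (72.9%) and at 6 h (68.6%), 5 and 4 in PEO1 B at 2 h and 6 h (52.6% and 53.0%), 4 in PEO4 B at 2 h and at 6 h (65.3% and 69.8%), 6 between these times (60.1%) and 3 for the 6 h interaction (47.4%). A minimum count of 50 left 1 call in the A pair, since PGR was no longer tested. Library totals gave 2 calls in PEO1 B at 6 h by adding ESR1, and they moved the median of all genes by -0.128 to -0.16 in treated against untreated cells. Leaving out each library gave 1 to 2 calls between the untreated B lines, 0 to 2 in PEO1 B at 2 h, 2 to 3 in PEO4 B at 2 h, at 6 h and between these times, and did not move the other counts, although between the lines at 6 h ESR2 replaced IGFBP4 without replicate 1 of PEO4 B. ESR1 was added between the untreated B lines (1.02) without replicate 3 of PEO1 B. GREB1 in PEO4 B at 6 h became a call (-1.06) without replicate 1 of the untreated libraries, and ESR2 between 6 h and 2 h in PEO4 B without replicate 2 (1.16) or 3 (1.49) at 2 h, without replicate 1 at 6 h (1.18) and with no filter on low counts. The filter also decided the IGFBP4 call in PEO4 B at 2 h (-0.99 with none).

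Replicate numbers did not pair the samples, since same-numbered libraries correlated at -0.0429 to 0.0228 in the A pair and -0.158 to 0.134 in the B pair, and 2 of 6 and 6 of 18 libraries correlated best with their own number. The fit with a replicate block moved 1 count of calls, from 2 to 3 between 6 h and 2 h in PEO4 B, by adding ESR2 (1.05). The list totals stayed within 1.5 times under the scalings, tools and filters tried. Low counts limit ESR2, PGR, TFF1 and CXCL12.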
